A study of Mus musculus with 47 samples.

Results

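The 9 Polycomb genes described here are Ezh2, Ezh1, Eed and Suz12 of Polycomb repressive complex 2 (PRC2) and Bmi1, Ring1, Rnf2, Cbx7 and Cbx8 of Polycomb repressive complex 1 (PRC1). They were chosen by name: every probe set whose gene symbol in the platform annotation was exactly one of these was taken, and each gene was read by its brightest probe set. This gave 26 probe sets of 45101 and 9 genes of 18194. RNA was measured on 47 arrays of mouse B cell lymphoma cells of Eµ-Myc mice, in which the heavy chain enhancer drives Myc in the B lineage. All cells, controls included, also carried a retroviral Bcl2, which blocks apoptosis, had been selected with puromycin for 48 h, and grew on NIH 3T3 mouse fibroblasts irradiated with 20 Gy. The groups were WT cells under ADR (Adriamycin, a DNA-damaging drug, 0.05 µg/ml for 5 days) and WT native cells (untreated), n = 14 each. Suv39h1- cells under ADR and Suv39h1- native cells (n = 5 each) lacked Suv39h1, a histone H3 lysine 9 methyltransferase. Suv39h1ER cells are labelled as Suv39h1- plus Suv39h1ER and were measured under ADR with 4OHT (4-hydroxytamoxifen, the ligand of the estrogen receptor domain), under ADR alone, and native (n = 3 each). Only the WT ADR and the Suv39h1ER ADR4OHT arrays are labelled senescent.

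PRC2 places methyl groups on lysine 27 of histone H3, and Ezh2 and Ezh1 are its alternative catalytic subunits. Ezh2 is known as the enzyme of dividing cells, including germinal centre B cells, while Ezh1 is also present in resting cells. Suz12 and Eed form the core that either enzyme needs. PRC1 carries the ubiquitin ligases Ring1 and Rnf2, its Cbx proteins bind the PRC2 mark, and Bmi1 is a partner of the ligases that was found as a collaborator of Myc in lymphomas of Eµ-Myc mice. The Cdkn2a and Cdkn2b locus, which encodes inhibitors of the cell cycle, is a classical Polycomb target.

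The promoters of 3 PRC2 genes are shown because Ezh2 and Suz12 had the largest falls among the members in WT cells while Ezh1 did not fall. Each is the 250 bases before the gene start in the RefSeq table for GRCm38.p6, written 5′ to 3′ on the gene's strand. All 9 members had an entry. Capitals mark matches, on either strand, to an E2F word (TTTCCCGC, TTTGGCGC, TTTCGCGC or TTTGCCGC), a CHR word (TTTGAA or TTCGAA) or CCAAT. No matches overlapped in these 3 windows.
Ezh2 (chr6:47595031-47595280, minus strand): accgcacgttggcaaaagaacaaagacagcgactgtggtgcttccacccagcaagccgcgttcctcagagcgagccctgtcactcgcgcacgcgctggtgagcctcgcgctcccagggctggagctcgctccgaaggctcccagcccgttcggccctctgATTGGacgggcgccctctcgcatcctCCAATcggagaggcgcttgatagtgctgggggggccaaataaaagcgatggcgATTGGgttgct
Suz12 (chr11:79992856-79993105, plus strand): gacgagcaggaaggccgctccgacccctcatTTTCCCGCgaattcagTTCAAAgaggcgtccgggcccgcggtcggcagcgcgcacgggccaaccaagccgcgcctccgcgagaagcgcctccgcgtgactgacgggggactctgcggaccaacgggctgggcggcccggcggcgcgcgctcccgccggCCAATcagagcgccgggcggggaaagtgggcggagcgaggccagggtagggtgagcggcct
Ezh1 (chr11:101226464-101226713, minus strand): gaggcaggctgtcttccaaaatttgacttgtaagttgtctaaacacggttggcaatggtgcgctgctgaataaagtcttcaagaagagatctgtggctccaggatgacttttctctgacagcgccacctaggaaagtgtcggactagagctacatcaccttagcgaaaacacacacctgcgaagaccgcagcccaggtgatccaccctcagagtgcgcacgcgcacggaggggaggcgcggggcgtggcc

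The Ezh2 window held 3 CCAAT words and neither of the others, the Suz12 window held 1 of each kind, and the Ezh1 window held none. Among the other members Eed had 2 CHR words, Cbx7 had 1 CHR word and 1 CCAAT, Cbx8 had 2 CCAAT words, and Bmi1, Ring1 and Rnf2 had none. Over 32851 promoters of the same length, 1.86% held an E2F word, 17.1% a CHR word and 33.8% a CCAAT. The start that the table uses for Ezh2 lies inside the outermost bound of the gene (6:47530274 to 47595270), so most of its window lies within the annotated gene. The Cbx7 window (15:79932647 to 79932896) lies wholly within the annotated gene (15:79915804 to 79971143). A match is a run of letters and no more than that.

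The median log2 level of an array was 4.07 for Suv39h1- 1032 under ADR and 4.32 to 4.43 for the others. The 10 B cell markers had group means of 8.43 to 9.21 and the 8 T cell markers of 4.53 to 4.84, and the B cell label was not contradicted. Probe sets of Suv39h1 were not analysed here, and the targeted gene gives no check of the genotype labels. The arrays of a Suv39h1ER culture did not resemble each other: their deviations from the group means correlated above 0.1 in 1 of 3 cultures for ADR with 4OHT and ADR, in 1 of 3 for ADR and native, and in 0 of 3 for ADR with 4OHT and native. Over 500 variable genes, the 6 pairs among WT lymphomas 2949, 5043, 5766 and 6054 had a median correlation of 0.621, other pairs of cultures one of -0.07, and Suv39h1ER 4936 with 5043 reached 0.703. Suv39h1- 7890 with 9250 had only 0.228. The labels give the number 5043 under WT and Suv39h1ER and 4936 under Suv39h1- and Suv39h1ER, and these were treated as separate cultures, whose deviations correlated at 0.191 for 5043 and 0.116 for 4936. The values do not settle whether these are separate lymphomas. If any was counted repeatedly, the p-values here are too low.

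In WT lymphomas the PRC2 core fell under ADR while Ezh1 and Bmi1 rose. Of the 9 members 3 fell (Ezh2, Suz12 and Eed), 2 rose (Ezh1 and Bmi1) and 4 did not pass the test, by limma at a Benjamini-Hochberg adjusted p under 0.05 over all genes. The background was high: 30.2% of all 18194 genes were called in this comparison, 14.1% lower and 16.1% higher. It was higher still among brighter genes, as most members are. Of the 9097 genes above the median level 4614 were called, 2406 lower and 2208 higher, in a fit of those genes alone. The median log2 change of the 9 members was -0.19, beside -0.0002 over all genes. All changes below are differences of RMA log2 levels, ADR minus native, of the same lymphoma.

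Ezh2, the main H3 lysine 27 methyltransferase of dividing cells, had a lowest log2 level of 7.87, a median of 8.50 and a highest of 9.68 in WT cells under ADR, against 9.18, 9.90 and 10.5 in WT native cells. The groups overlapped only through the upper part of the ADR range. It fell by 1.26 on the log2 scale (SE 0.18, adjusted p = 8.32e-06, limma), to 0.418 of the native level, and was lower in 13 of 14 lymphomas. Single changes ran from -2.21 in lymphoma 2949 and -2.18 in 5766 to -0.27 in 9583, -0.13 in 1570 and 0.04 in 9584. The change was -0.72 in 5043, and the other 10 lymphomas had changes below -1. Ezh2 has 1 probe set on the array, so no second reading exists here.

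Suz12, the zinc finger subunit that stabilises PRC2, had a lowest level of 8.65, a median of 9.35 and a highest of 9.77 under ADR, against 9.69, 9.98 and 10.2 in native WT cells. It was lower in 14 of 14 lymphomas and fell by 0.65 (SE 0.08, adjusted p = 1.08e-06, limma), to 0.639 of the native level. Its changes ran from -1.21 in 5560 to -0.20 in 6054, and lymphoma 2949, with the largest Ezh2 fall, had a Suz12 change of -0.22. All 6 Suz12 probe sets fell, with changes between -0.82 and -0.18 and adjusted p from 3.41e-07 to 0.0483 over all probe sets. Eed, which binds the methylated histone tail, fell by 0.24 (SE 0.07, adjusted p = 0.00715, limma) and was lower in 12 of 14 lymphomas. Its levels overlapped widely, at 9.18 to 9.89 under ADR against 9.47 to 10.01 in native cells. The second, dim Eed probe set changed by -0.03 and did not pass.

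Ezh1, the alternative methyltransferase, had a lowest level of 7.08, a median of 7.67 and a highest of 8.21 under ADR, against 6.37, 7.28 and 7.81 in native WT cells. It rose by 0.44 (SE 0.13, adjusted p = 0.00997, limma), 1.36-fold, and was higher in 11 of 14 lymphomas. The largest rise was 1.39 in lymphoma 1570, while 1467, 2949 and 5043 had changes of -0.11, -0.06 and -0.04. This rise rests on 1 of 4 Ezh1 probe sets, the brightest. The next brightest, with a mean level of 5.48 against 7.34, changed by -0.11 (SE 0.17), and the others, with mean levels of 2.87 and 2.67, changed by -0.01 and -0.12. None of these 3 passed the test, and with all 4 averaged the Ezh1 change was 0.05 (adjusted p = 0.726).

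**Figure D1:**
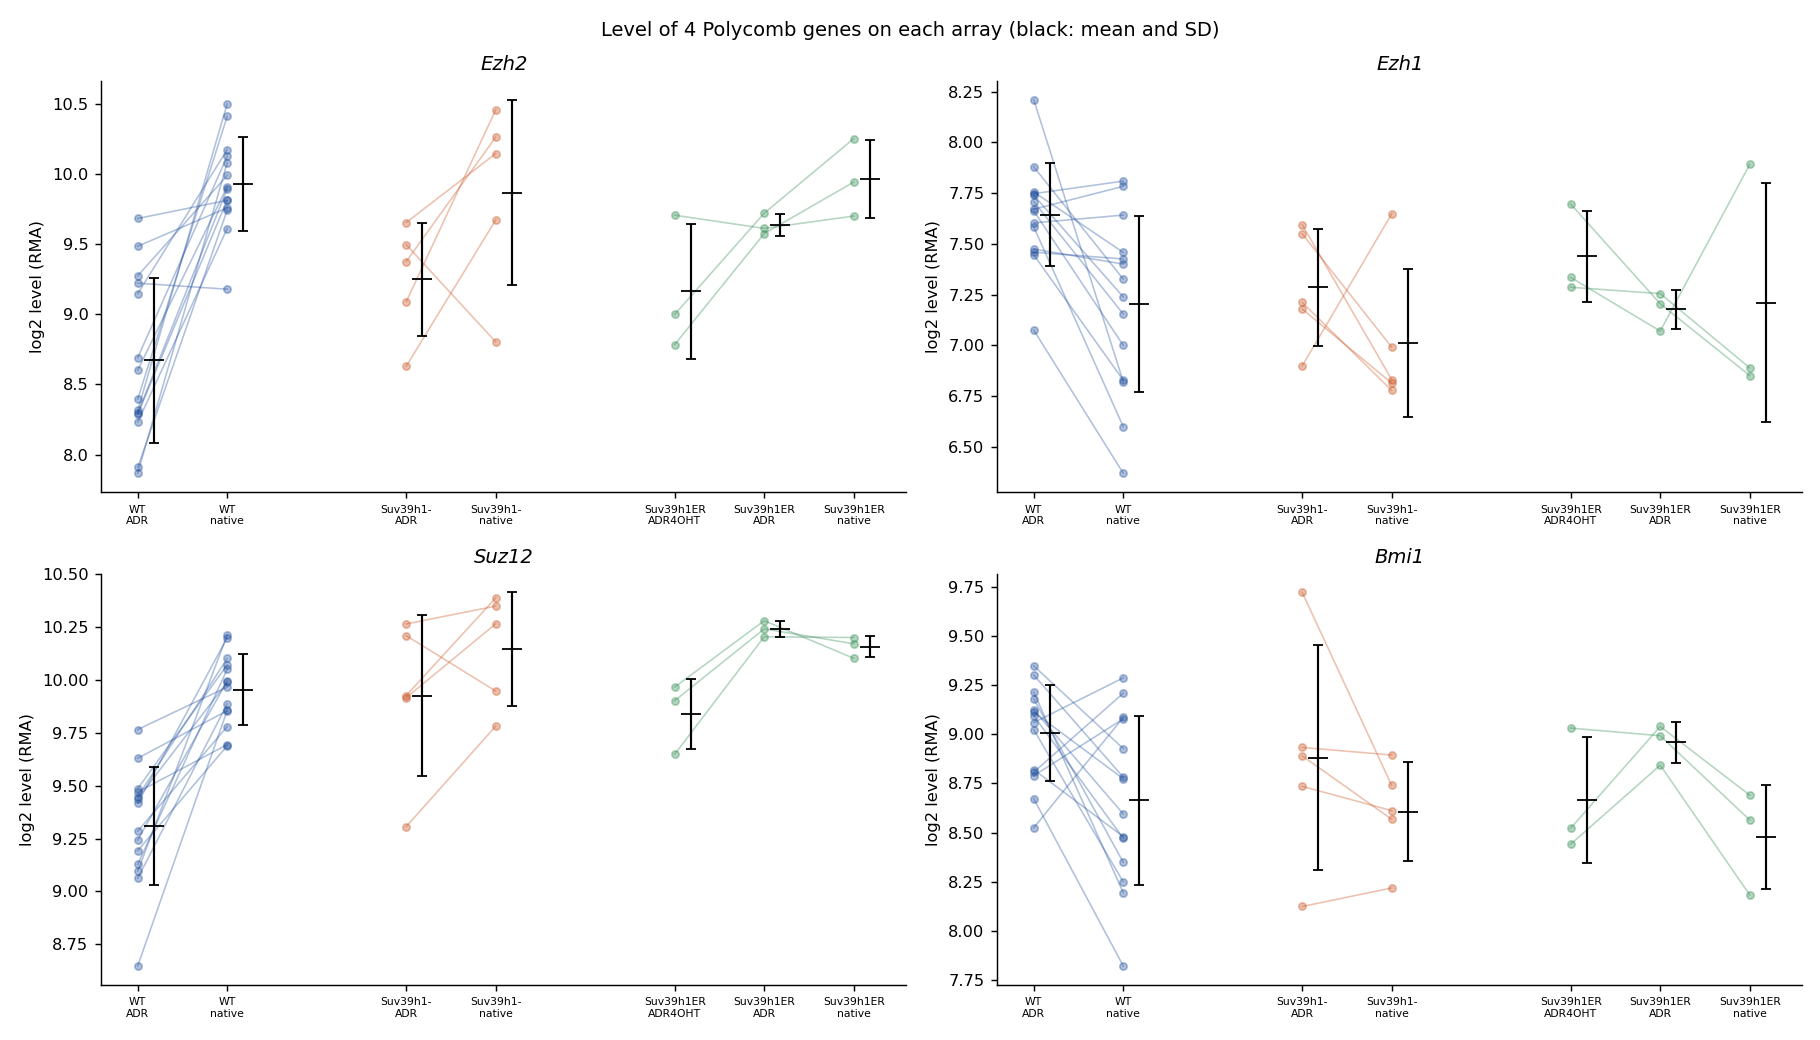
Log2 level (RMA, vertical axes) of Ezh2, Ezh1, Suz12 and Bmi1 on every array, by genotype and treatment, with lines joining the arrays of a culture and black marks for the mean and SD (n = 14, 5 and 3 cultures). Ezh2 was lower under ADR in 13 of 14 WT lymphomas and Suz12 in 14 of 14, while the Suv39h1ER arrays under ADR alone stayed close to the native ones for Suz12.

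Ezh2 and Ezh1 were set against each other within each culture. In WT lymphomas the Ezh2 change minus the Ezh1 change was -1.70 ± 0.81 (SD, n = 14) and was below 0 in 14 of 14. The exact sign-change permutation test, two-sided, gave p = 0.000122, the smallest it can give, and 0.00061 adjusted over 5 such tests. The difference was smallest in lymphoma 9584, at -0.03, and largest in 2581, at -3.00. In Suv39h1- lymphomas it was -0.89 ± 0.92 (SD, n = 5) and below 0 in 4 of 5, with an exact permutation p = 0.125 where 0.0625 is the smallest possible. Suv39h1ER cells under ADR with 4OHT had a difference of -1.03 ± 0.86 against native (SD, n = 3, below 0 in 3 of 3, exact p = 0.25). Those under ADR alone had -0.30 ± 0.52 (SD, n = 3, below 0 in 2 of 3, exact p = 0.5). With 3 cultures no p under 0.25 is possible, and both differences use the same native arrays. The WT and Suv39h1- values differed by 0.80 (Suv39h1- minus WT), which did not pass an exact permutation test over all 11628 splits (p = 0.0829, adjusted p = 0.207). Before adjustment, that p was 0.272 without Suv39h1- 4936 (difference 0.52), 0.0321 without WT 9584 (difference 0.93) and 0.0255 without Suv39h1- 5783 (difference 1.11). Since Ezh1 enters by its brightest probe set, the WT value was also taken over the mean of all probe sets, where it was -1.31. The values given for the other groups and for the genotype difference rest on the brightest Ezh1 probe set alone.

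**Figure D2:**
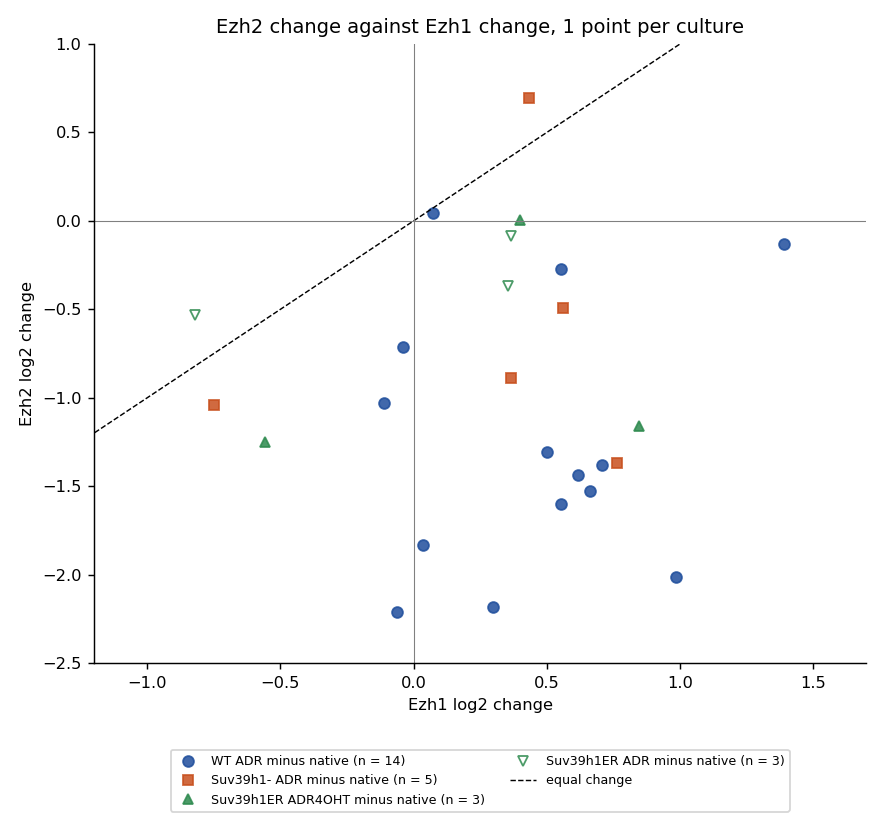
Log2 change of Ezh2 (vertical) against that of Ezh1 (horizontal) for each culture, with circles for WT, squares for Suv39h1-, filled triangles for Suv39h1ER under ADR with 4OHT and open triangles for Suv39h1ER under ADR alone, each minus native. All 14 WT circles lie below the dashed line of equal change, as do 4 of 5 Suv39h1- squares.

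Of the PRC1 members only Bmi1 passed the test in WT lymphomas. Its lowest, median and highest levels were 8.52, 9.08 and 9.35 under ADR, against 7.82, 8.69 and 9.29 in native WT cells, so the ranges overlapped over most of their length. It rose by 0.34 (SE 0.12, adjusted p = 0.0297, limma) and was higher in 10 of 14 lymphomas. Both Bmi1 probe sets rose, by 0.34 and 0.31. The changes ran from -0.56 in 2581, -0.40 in 403, -0.29 in 5560 and -0.23 in 7050 to 1.02 in 2949. Leaving out any of lymphomas 1467, 2949, 3769, 5043, 5766, 6054 or 9584 ended the call (adjusted p = 0.0517 to 0.0678). It also ended with only the WT arrays in the fit (adjusted p = 0.057), and with alike lymphomas counted once (2949, 5043, 5766 and 6054 as 1, and Suv39h1- 7890 and 9250 as 1), where the change was 0.25 (adjusted p = 0.194). This setting joined Suv39h1- 7890 and 9250 although they correlated at only 0.228. It kept Suv39h1ER 4936 and 5043 apart although they correlated at 0.703.

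The ligase Rnf2 was lower in 12 of 14 WT lymphomas, with a change of -0.15 (SE 0.08, adjusted p = 0.161, limma). Its second brightest probe set changed by -0.19 and did not pass, while a dim one, with a mean level of 3.73, fell by 0.52 (adjusted p = 0.000502 over all probe sets). Its paralog Ring1 changed by -0.004 (95% interval -0.15 to 0.14) and was higher in 8 of 14. Cbx7, a reader of the PRC2 mark, changed by -0.26 (adjusted p = 0.135, limma) and was lower in 11 of 14, with a change of 1.07 in lymphoma 1570. Without 1570 it was -0.36 (adjusted p = 0.0121), and a dimmer Cbx7 probe set fell by 0.41 (adjusted p = 0.00523). Cbx8, another reader, changed by -0.19 (adjusted p = 0.316, limma) and was lower in 11 of 14. No direction is therefore given for these 4 genes by the brightest probe set.

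**Figure D3:**
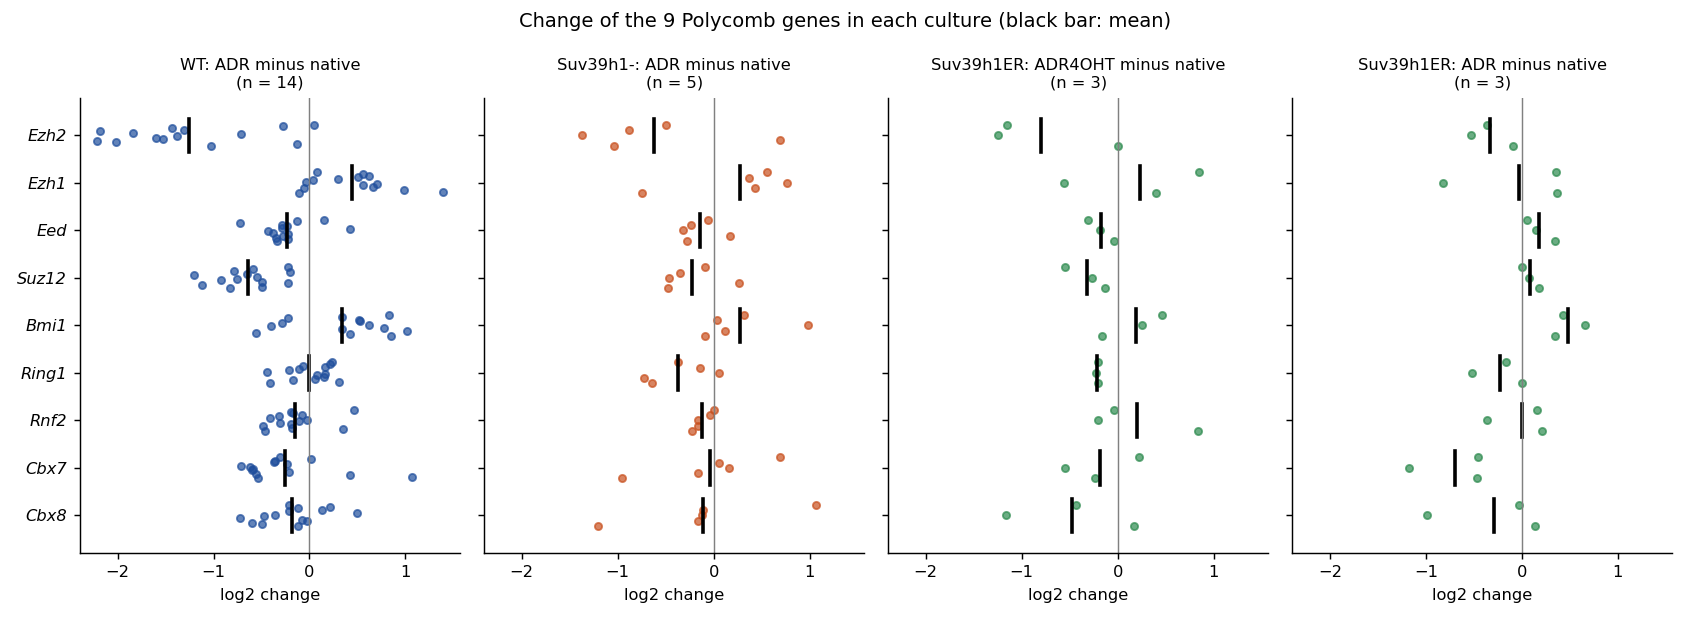
Log2 change of the 9 Polycomb genes (horizontal axes) in each culture, with 1 point per culture and a black bar at the mean, for WT and Suv39h1- under ADR and for Suv39h1ER under ADR with 4OHT and under ADR alone, each minus native. The WT points of Ezh2 reach down to -2.21 and those of Suz12 all lie below 0.

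The members did not move as a block. Across the 14 WT changes, as a description with no test, Ezh2 correlated at 0.762 with Rnf2, 0.493 with Eed, 0.375 with Suz12 and 0.139 with Ezh1. Ezh1 correlated at 0.798 with Cbx7, 0.541 with Ring1 and -0.47 with Bmi1. Lymphoma 1570, with the largest rise of Ezh1 and of Cbx7, weighs in these values. The genes with the most similar changes to Ezh2 over all genes were Rbm41 at 0.884, Cntrl at 0.879, Cdkal1 at 0.862, Cep295 at 0.861 and Cep43 at 0.856. Those most similar to Ezh1 were Arel1 at 0.926, Tbc1d22a at 0.919, Khnyn at 0.913, Lgals4 at 0.911 and Abca7 at 0.907. The proliferation marker Mki67 ranked 713 of all genes for Ezh2, at 0.562. These correlations are over 14 points that share the array of each lymphoma.

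The other genes of the pathway were read from lists of 9 PRC2 genes, 16 measured PRC1 genes of 18 and 5 genes of enzymes that remove the marks. In the WT comparison 14.1% of all genes were called lower and 16.1% higher. Among the 9 PRC2 genes 5 fell in WT cells and 0 rose. Epop fell by 0.69, Mtf2, which guides PRC2 to CpG islands, by 0.57, the histone chaperones Rbbp7 and Rbbp4 by 0.50 and 0.37, and the cofactor Jarid2 by 0.48. Phf1 changed by 0.29 (adjusted p = 0.059, limma). Of the PRC1 genes 6 fell and 1 rose. The chromobox gene Cbx2 fell by 0.70, Kdm2b, which brings a variant PRC1 to CpG islands, by 0.60, Yaf2 by 0.49, the polyhomeotic gene Phc1 by 0.45, Pcgf6 by 0.31 and L3mbtl2 by 0.22. Pcgf3, a Bmi1 paralog, rose by 0.30 (adjusted p = 0.031). Of the removal genes Asxl1 fell by 0.71 and its partner Bap1, the deubiquitinase of the PRC1 mark, by 0.22. The H3 lysine 27 demethylases Kdm6a and Kdm6b changed by -0.11 and 0.03 and did not pass. Median changes of these lists were -0.37, -0.12 and -0.11, beside -0.0002 over all genes.

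**Figure D4:**
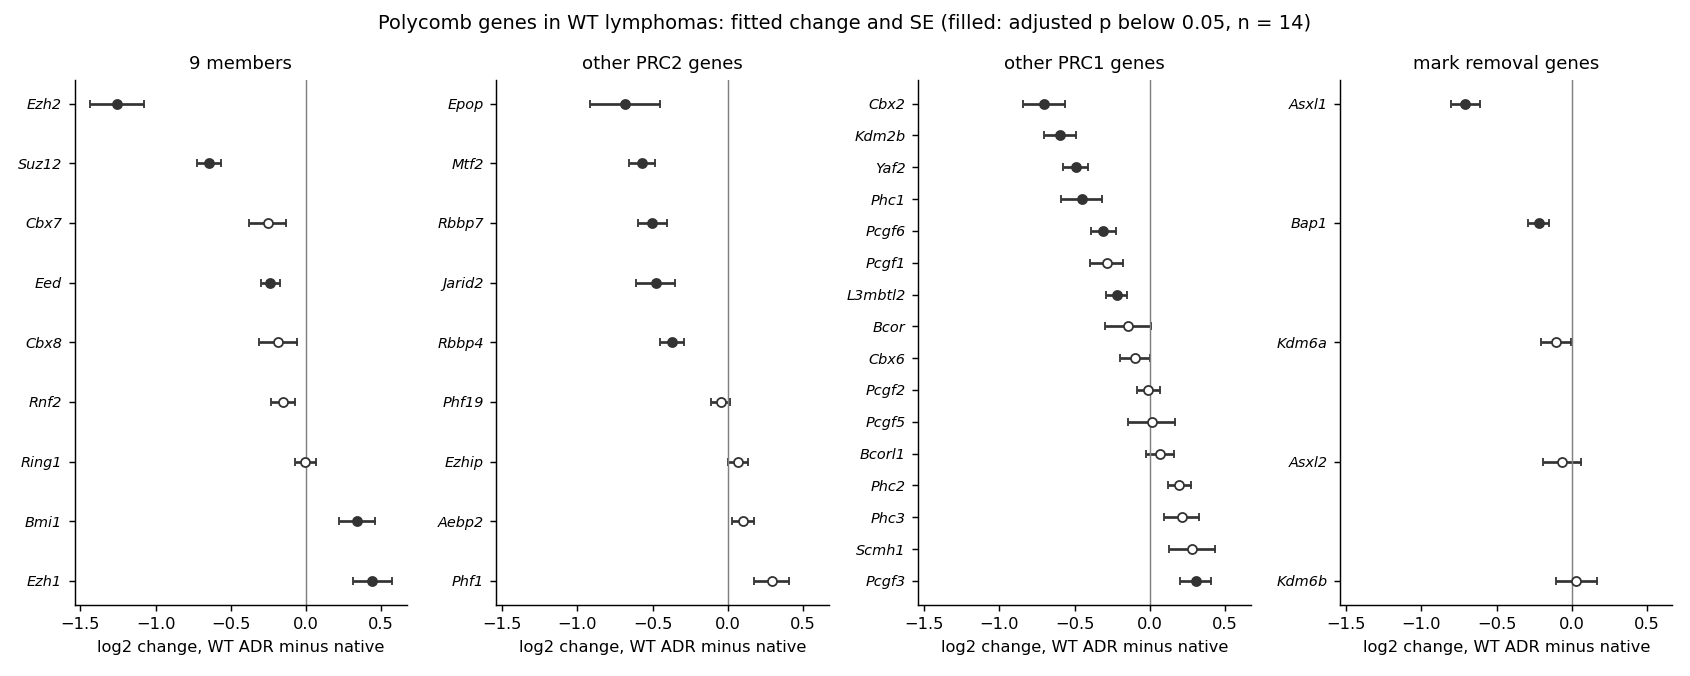
Fitted log2 change, WT ADR minus native, with its SE (n = 14) for the 9 members and the other PRC2, PRC1 and mark removal genes, with filled points where the adjusted p was below 0.05. Ezh2 has the lowest value, at -1.26, and Ezh1 and Bmi1 lie above 0 at 0.44 and 0.34.

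Of the genes that Polycomb is known to repress, Cdkn2a changed by 0.01 (SE 0.45) and Cdkn2b by 0.42 (SE 0.35) in WT cells, and neither passed. These SEs use the spread over all cultures, and the Cdkn2a changes of Suv39h1ER under ADR alone had an SD of 5.21 (n = 3). Over the 14 WT lymphomas the Cdkn2a changes had an SD of 0.41 and ran from -0.67 to 0.85. Cdkn2b varied widely, with changes from -0.95 in lymphoma 1467 to 2.25 in 9583. In this comparison 16.1% of all genes were called higher and 14.1% lower. Of 23 measured developmental regulators 2 rose, Hoxd8 by 0.86 and Gata4 by 0.26, and 0 fell. Their summed list had a mean log2 level of 4.01 under ADR and 4.03 in native WT cells, below the array medians.

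Markers of cell division and of other cells moved in the same WT comparison, where 14.1% of all genes were called lower and 16.1% higher. All 19 mitosis genes and 18 of 19 replication genes fell, with a mean mitosis change of -2.12 ± 0.94 (SD, n = 14), and Mki67 fell by 2.31. Cdkn1a, the p53 target that inhibits cyclin-dependent kinases, rose by 1.11 (adjusted p = 0.000118, limma). Of 26 fibroblast markers 23 rose and 0 fell, and their mean level ran from 4.61 to 8.91 under ADR against 3.90 to 5.04 in native WT cells, a mean change of 1.85 ± 1.38 (SD, n = 14). Macrophage markers rose in 9 of 13, with a mean change of 1.46. B cell markers fell in 5 of 10, with a mean change of -0.59. In bulk RNA fewer cells of a type and less RNA per cell cannot be told apart.

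The members' changes were set against the fibroblast and the mitosis change over the 14 WT lymphomas, 18 relations in all, by permutation. Bmi1 went down as the fibroblast change went up, with Spearman's rho = -0.76 (p = 0.00217, adjusted p = 0.0391, permutation test, n = 14) and Pearson's r = -0.74 (p = 0.00279, adjusted p = 0.0502). Without lymphomas 403 and 5560, the farthest in fibroblast change, r was -0.58. For Suz12 r was -0.58 (p = 0.0321, adjusted p = 0.289) with rho = -0.45. For Ezh2 against fibroblasts r was -0.46 (p = 0.103, adjusted p = 0.371, permutation test) with rho = -0.44. Ezh2 against mitosis had r = 0.45 (p = 0.103, adjusted p = 0.371) with rho = 0.39, and r fell to -0.07 without 2949 and 9584, so that relation rests on those lymphomas. Ezh1 against fibroblasts had rho = 0.57 (p = 0.037, adjusted p = 0.333, permutation test) with r = 0.28, and r was 0.51 without 403 and 5560. The other relations had adjusted p of at least 0.371 by either measure.

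With the fibroblast change as a covariate, the value at no fibroblast change was -0.80 for Ezh2 (adjusted p = 0.0823), -0.40 for Suz12 (adjusted p = 0.0462), -0.08 for Eed (adjusted p = 0.75), 0.27 for Ezh1 (adjusted p = 0.42) and 0.85 for Bmi1 (adjusted p = 0.0032, limma, n = 14). Suz12 and Bmi1 thus passed in this fit and Ezh2, Eed and Ezh1 did not, where 2183 of 18194 genes (12.0%) were called, against 5489 in the comparison without the covariate. An alternative chosen after seeing the data set aside the 6 WT lymphomas with the largest fibroblast change. In the 8 left, 3 members passed, where 2554 of 18194 genes were called. These were Ezh2, Suz12 and Bmi1, while Ezh1 (adjusted p = 0.228) and Eed (adjusted p = 0.29, limma) did not pass. The part of the fibroblast RNA in the other changes was not tested further.

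**Figure D5:**
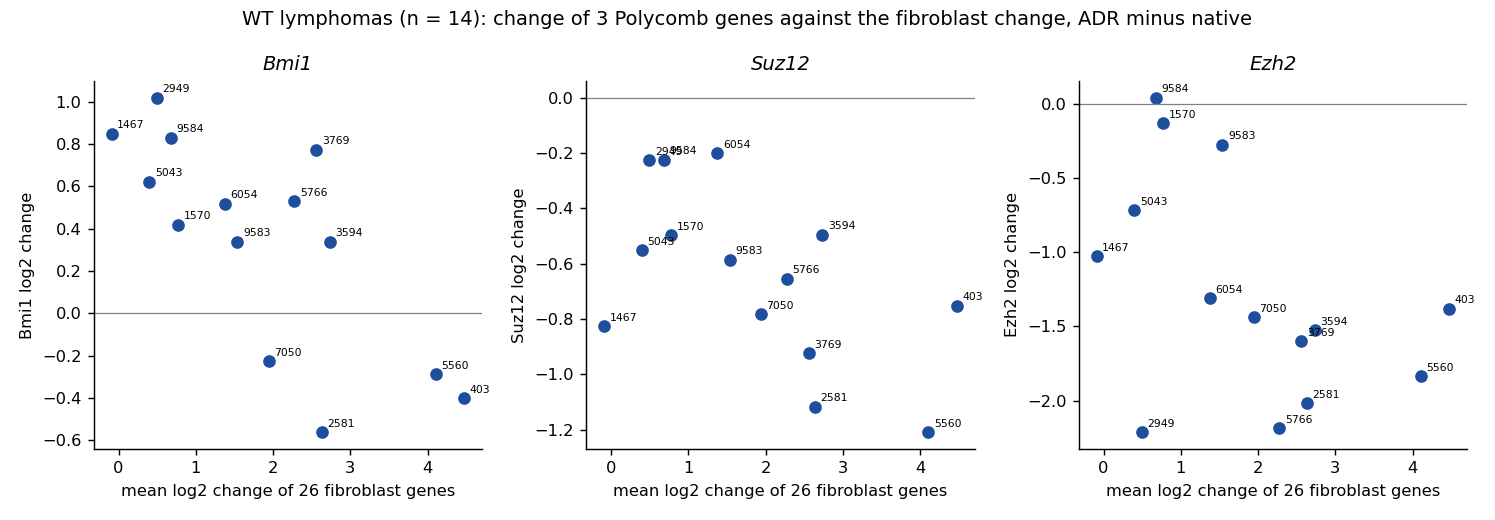
Log2 change of Bmi1, Suz12 and Ezh2 (vertical axes) against the mean log2 change of 26 fibroblast markers (horizontal axis) in the 14 WT lymphomas, ADR minus native, each point numbered by lymphoma. The Bmi1 change falls along the axis, with 403, 5560, 2581 and 7050 below 0.

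In Suv39h1- lymphomas no member passed the test under ADR, where 0.011% of all genes were called (limma). Without adjustment, 1 of the 9 members, Ring1, had p under 0.05, as did 1885 of all 18194 genes. Ezh2 levels were 8.63, 9.50, 9.09, 9.38 and 9.65 under ADR in lymphomas 1032, 4936, 5783, 7890 and 9250, against 9.67, 8.80, 10.46, 10.26 and 10.15 in the same lymphomas native. It was lower in 4 of 5, and lymphoma 4936, which had the lowest native level, was higher by 0.69. The fitted change was -0.62 (SE 0.30, adjusted p = 0.487, limma). Suz12 changed by -0.22 and Eed by -0.14, each lower in 4 of 5 with 4936 the exception. Ring1 changed by -0.37 (SE 0.12, adjusted p = 0.246) and was lower in 4 of 5. Ezh1 changed by 0.27 and Bmi1 by 0.27, each higher in 4 of 5 with 1032 the exception. Mitosis markers changed by -0.61 ± 0.85 and fibroblast markers by 0.23 ± 0.32 (SD, n = 5).

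The difference between both responses was tested directly. For Ezh2 the Suv39h1- change was above the WT change by 0.64 (95% interval -0.09 to 1.37, adjusted p = 0.328, limma), for Suz12 by 0.42 (0.11 to 0.74, adjusted p = 0.149), and for Ring1 it was -0.36 (-0.65 to -0.08, adjusted p = 0.166). No member passed, where 0.341% of all genes were called. An unadjusted p under 0.05 was found for 2 of the 9 members and for 3424 of all 18194 genes (limma). The intervals are wide enough that the members' responses in the 2 genotypes are not shown to be alike.

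Between genotypes, native cells showed no member past the test, where 1.09% of all genes were called (limma). An unadjusted p under 0.05 was found for 1 of the 9 members and for 1735 of all 18194 genes. Eed was higher by 0.21 in Suv39h1- cells (adjusted p = 0.447). Under ADR 2 members were called, where 12.6% of all genes were. Suz12 averaged 9.92 ± 0.38 in Suv39h1- cells under ADR (SD, n = 5) and 9.31 ± 0.28 in WT cells under ADR (SD, n = 14). It was higher by 0.62 in Suv39h1- cells (SE 0.16, adjusted p = 0.0154, limma). Its 5 Suv39h1- values ran from 9.31 in 1032 to 10.26 in 9250, overlapping the WT range of 8.65 to 9.77 only through 1032. Ring1 averaged 6.31 ± 0.53 in Suv39h1- cells and 6.81 ± 0.21 in WT cells under ADR and was lower by 0.51 (SE 0.16, adjusted p = 0.0442). Its low values came from 1032 and 4936, at 5.74 and 5.76, while 5783, 7890 and 9250 had 6.93, 6.45 and 6.64. The Ring1 call was lost without 3 of 5 Suv39h1- lymphomas: 1032 (-0.37, adjusted p = 0.115), 4936 (-0.37, adjusted p = 0.155) and 7890 (-0.54, adjusted p = 0.067). It was also lost without any of 10 of the 14 WT lymphomas (1467, 1570, 2949, 3594, 3769, 5560, 5766, 6054, 9583 or 9584, adjusted p = 0.053 to 0.0599), after quantile normalization (-0.39, adjusted p = 0.0877), with the robust variance model (adjusted p = 0.0525) and with alike lymphomas counted once (adjusted p = 0.0967). Suz12 lost the call without 9250 or 4936 (adjusted p = 0.0590 and 0.0551).

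Ezh2 was higher by 0.58 in Suv39h1- cells under ADR (adjusted p = 0.164, limma), Eed by 0.30 (adjusted p = 0.0594), and the Ezh1 difference was -0.36 (adjusted p = 0.0883). None of these passed. Eed passed without Suv39h1- 1032 (0.38, adjusted p = 0.0167) or WT 5043 (0.33, adjusted p = 0.034), and Ezh1 without WT 403 (-0.40, adjusted p = 0.0367). In the same comparison 12.6% of all genes were called. Of 30 other Polycomb genes measured, those called are named here after their values were seen. Rbbp7, Pcgf6 and Asxl1 were higher by 0.71, 0.86 and 0.57 in Suv39h1- cells. Phf1, Pcgf2 and Bcorl1 were lower by 0.57, 0.48 and 0.61. The mitosis list stood at 8.95 ± 0.45 in Suv39h1- cells (SD, n = 5) and 7.58 ± 0.84 in WT cells (SD, n = 14) under ADR, and the fibroblast list at 4.85 ± 0.83 in Suv39h1- cells and 6.31 ± 1.24 in WT cells. Their part in the Suz12 and Ring1 differences was not tested.

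In Suv39h1ER cultures no member passed the test in any comparison. Of all genes, 0.143% were called for ADR with 4OHT against ADR and 0.126% for ADR against native (limma). For ADR with 4OHT against native 2.95% were called. In this order, 2, 1 and 0 of the 9 members had an unadjusted p under 0.05. Over all 18194 genes, 2268, 2240 and 2960 did. Ezh2 had 9.71, 9.0 and 8.78 under ADR with 4OHT in cultures SuvER-4146, 4936 and 5043, against 9.61, 9.72 and 9.57 under ADR and 9.70, 10.25 and 9.94 native. Culture SuvER-4146 barely varied, while 4936 and 5043 had their lowest values with 4OHT. The Ezh2 change was -0.47 for ADR with 4OHT minus ADR (95% interval -1.28 to 0.33, adjusted p = 0.686) and -0.80 for ADR with 4OHT minus native (-1.61 to 0.005, adjusted p = 0.31).

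Suz12 had 9.97, 9.90 and 9.65 under ADR with 4OHT in cultures SuvER-4146, 4936 and 5043, against 10.28, 10.24 and 10.20 under ADR and 10.10, 10.17 and 10.20 native. The values with 4OHT lay below all others. Its change with 4OHT was -0.40 against ADR (adjusted p = 0.325, limma) and -0.32 against native (adjusted p = 0.369). Under ADR alone it was 0.08 against native and above 0 in 3 of 3. Eed had 9.67, 9.60 and 9.67 with 4OHT, against 10.06, 9.93 and 10.03 under ADR and 9.71, 9.79 and 9.98 native. It was lower with 4OHT than under ADR in 3 of 3, with a mean change of -0.36 (adjusted p = 0.285). The change of Ezh1 with 4OHT was 0.26 against ADR (3 of 3 above 0) and that of Cbx7 was 0.51 (3 of 3 above 0, adjusted p = 0.458). Cbx7 changed by -0.70 and Bmi1 by 0.48 under ADR alone against native, each the same way in 3 of 3 (adjusted p = 0.275 and 0.459).

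Marker lists moved in the same Suv39h1ER comparisons. The 26 fibroblast markers had mean levels of 4.11 to 4.72 under ADR with 4OHT, 4.49 to 5.63 under ADR and 3.94 to 4.09 native. Their mean change was -0.76 for ADR with 4OHT minus ADR (above 0 in 0 of 3) and 1.13 for ADR minus native (above 0 in 3 of 3), and 0 of 26 passed the test in either comparison. The 19 mitosis markers had mean levels of 7.80 to 9.20 under ADR with 4OHT, 9.16 to 9.26 under ADR and 9.47 to 9.90 native, with mean changes of -0.72 for ADR with 4OHT minus ADR and -0.47 for ADR minus native, both above 0 in 0 of 3. The 13 macrophage markers changed by -0.40 and 1.37 in these comparisons, above 0 in 2 of 3 and 3 of 3. Their part in the Eed, Suz12, Ezh1, Cbx7 and Bmi1 values was not tested.

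The order of group means was followed for each member over all 7 groups. Ezh2 ran from 9.96 in Suv39h1ER native and 9.93 in WT native to 9.87 in Suv39h1- native, 9.64 in Suv39h1ER ADR, 9.25 in Suv39h1- ADR, 9.16 in Suv39h1ER ADR4OHT and 8.67 in WT ADR, and no neighbours in that order differed by more than the larger of their SDs. Suz12 had the same lowest group, WT ADR at 9.31, which stood 0.53 below the next, Suv39h1ER ADR4OHT at 9.84, more than the larger SD of 0.28. The gap of 0.08 between its 2 highest groups, Suv39h1ER ADR at 10.24 and Suv39h1ER native at 10.16, also passed the larger SD of 0.05. For Ezh1 the highest mean was 7.64 in WT ADR and the lowest 7.01 in Suv39h1- native, with no neighbours beyond their SD. The other 6 members had no such gap between neighbouring groups.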

How the data were processed

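RNA of each culture was hybridised to Affymetrix 3′ arrays. The authors deposited log2 levels for each probe set, and the submitters' processing notes name RMA, oligo and R 3.5.0. No source used here says whether batches were adjusted. Of 45101 probe sets 34958 carried 1 gene symbol. Each gene was read by its brightest probe set on average over 47 arrays, giving 18194 genes, with no filter on dim ones. The number of arrays limits the precision.

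All arrays entered 1 limma fit (version 3.58.1, R 4.3.3, read with data.table, version 1.17.8) with the 22 cultures, each a number within a genotype, as blocks and 4 treatment terms. The pairing comes from the series design text. Deviations of the 2 arrays of a culture correlated above 0.1 in 10 of 14 WT and 5 of 5 Suv39h1- pairs. Genotypes were compared over 19 arrays without a block. All p-values are two-sided. Genes were called at an adjusted p under 0.05 over all genes. Permutation tests used Python (scipy 1.17.1, 100000 resamples or exact). The fit was tested on simulated data. The members, lists and tests were chosen with earlier results of these data known. Genes named by rule are the 9 members, Cdkn2a, Cdkn2b, Mki67, Cdkn1a and other Polycomb genes called in WT (up to 8 in each direction). The 5 genes with changes most like those of Ezh2 and of Ezh1 belong to the same rule. Phf1, Kdm6a, Kdm6b, Hoxd8, Gata4, Pcgf2 and Bcorl1 were named outside it. Alternatives were the block, other arrays, mean of probe sets, a level filter, renormalization, another variance model, alike lymphomas counted once, each culture left out and a fibroblast covariate.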

Additional observations from a re-analysis of the deposited data

Results flagged for a closer look

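Groups of 4 to 10 samples were examined for outlying values, which only the Suv39h1- groups (n = 5) are, while WT (n = 14) and Suv39h1ER (n = 3) were not examined. Over 27 such sets of values 3 stood far from the rest of their group, and chance alone sets about 1 in 20 such groups apart. The sets are not independent, since each change is taken from the ADR and native levels that were also examined. All came from Suv39h1- lymphoma 1032, whose array under ADR had the lowest median of all arrays. Its Ezh1 change under ADR was -0.75, where the other 4 Suv39h1- lymphomas had changes above 0. Its Ezh1 level in native cells, which enters that change and is not on the array under ADR, was 7.65, above the other 4 at 6.78 to 6.99. Its Cbx7 level under ADR was 4.54, below the other 4 at 6.30 to 6.91.

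For Suz12, all 3 Suv39h1ER cultures had a change above 0 under ADR alone and all 14 WT lymphomas had one below 0. The means differed by 0.73 (Suv39h1ER minus WT). This difference was not tested.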

How the results depend on the processing

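In WT cells 5 members were called, beside 5489 of all 18194 genes. The members' count was 4 with no replicate block (4656 genes), 4 with only the WT arrays (5346) and 4 with alike lymphomas counted once (5266). It was 5 with culture as a random replicate block (5239), the mean of probe sets (5439), renormalization (5590) or another variance model (5434). It was also 5 with a level filter, where 4614 of 9097 genes were called. With the fibroblast covariate it was 2 (2183 genes). Without the 6 lymphomas of largest fibroblast change (added after seeing the data) it was 3 (2554 genes). Over each lymphoma left out it was 4 to 6 (4920 to 5694 genes). With no replicate block Bmi1 kept its change of 0.34 and lost its call (adjusted p = 0.0533). The mean of all probe sets ended the calls of Ezh1 and Eed (-0.13, adjusted p = 0.119) and gave calls to Rnf2 (-0.21) and Cbx7 (-0.21). In the 6 comparisons with 0 members called, the count was 0 under every alternative run. Under ADR, Suv39h1- minus WT, 2293 of all genes were called in the main fit. There the members' count was 1 after quantile normalization (2126 genes), 1 with the robust variance model (2249) and 1 with alike lymphomas counted once (939). Over each lymphoma left out it was 0 to 3 (1227 to 3389 genes). Over each culture left out the Ezh2 minus Ezh1 change was -1.83 to -1.60 in WT, -1.18 to -0.58 in Suv39h1-, -0.59 to -0.08 in Suv39h1ER ADR, -1.35 to -0.54 in Suv39h1ER ADR4OHT, and its genotype difference 0.52 to 1.11. The number of passing relations by Pearson was 1 with the mean of probe sets, and by Spearman 0 with alike lymphomas counted once, where rho of Bmi1 against fibroblasts was -0.78 (adjusted p = 0.114). The cause of these moves was not tested. Of the changes of single members, no called value changed sign.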

Other observations

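Cdkn2a, the Polycomb target that encodes p16 and Arf, varied widely in level among the Suv39h1ER arrays. In culture 4936 it stood at 5.57 under ADR with 4OHT, 11.77 under ADR and 2.70 native, and Cdkn2b at 4.60, 9.26 and 4.18. Culture SuvER-4146 had Cdkn2a levels of 7.20 under ADR with 4OHT, 7.22 under ADR and 6.57 native, and 5043 had 2.36 under ADR with 4OHT, 4.19 under ADR and 4.66 native. In the Suv39h1- lymphoma labelled 4936 it stood at 9.63 under ADR and 9.84 native. Cdkn2a was high in WT lymphoma 403, at 7.49 under ADR and 7.31 native, while the WT median was 4.08 under ADR and 4.25 native. These levels differ between cultures by more than any of the 9 members did.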
